A study of Homo sapiens with 4 samples.

Results

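The B cell receptor signalling genes described here are 9 of the 56809 genes in the deposited count table, chosen by name as receptor subunits, a coreceptor, and the kinases, adaptor and phospholipase next to the receptor. They are CD79A, CD79B, CD22, LYN, BLK, SYK, BLNK, BTK and PLCG2, and each had 1 row. RNA-seq of poly(A)-selected RNA was made from NCI-H929, an established human multiple myeloma line, here expressing the nuclease Cas9. The 2 BCL7A knockout (KO) libraries came from cells with a doxycycline-inducible BCL7A KO construct, and the 2 control libraries from cells given a control construct per the treatment protocol, although the titles and genotype labels call them wild type. Cells of both groups carried Cas9, went through 3 days of puromycin selection and were kept in 0.5 ug/ml doxycycline during the 24 h before RNA isolation. The BCL7A protein belongs to the BAF chromatin remodelling complexes, also called SWI/SNF. The labels do not say whether the KO cells were 1 clone or a pool, nor whether replicates were grown separately. The p-values therefore reflect library-to-library spread that may be purely technical.

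The B cell receptor is a membrane immunoglobulin held by a heterodimer of CD79A and CD79B, whose tails carry the tyrosine motifs that start signalling. SRC family kinases such as LYN and BLK phosphorylate these tails, SYK docks on them, and the adaptor BLNK then brings BTK to PLCG2, the phospholipase that releases calcium and activates protein kinase C. CD22 dampens the signal by recruiting a phosphatase. Plasma cells, from which myeloma arises, secrete immunoglobulin and usually lose much of this mature B cell program.

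The libraries held 38671744 and 40799624 counts in the KO group, against 17567202 and 20153596 counts in the control group, so depth differed along with the group. The targeted gene BCL7A was at 1.31 and 1.19 CPM (counts scaled to library size) in the KO libraries and at 43.0 and 45.7 CPM in the control libraries, although a Cas9 cut need not lower its target's mRNA. The groups differed far beyond BCL7A, since 76.2% of 17885 tested genes passed the adjusted p threshold of 0.05. Loss of BCL7A and any other difference between the 2 sets of cells cannot be told apart. Whether both sets are still the same line was not tested, and IGHD, at 0 CPM in KO and 4682 CPM in control, is the widest gap described here. Rose and fell therefore compare libraries by their labels. The labels name the cell type B lymphocyte. All 7 plasma cell markers were present, with a summed level of 11100 to 11110 CPM in the KO libraries and 6141 to 6190 CPM in the control libraries. The 6 mature B cell markers summed to 4.79 to 5.33 CPM in the KO libraries and to 100.2 to 101.3 CPM in the control libraries.

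The start-site sequences of CD79A, BLNK and BTK, 3 of the 4 members that fell, are shown here next to that of PLCG2, whose level was nearly equal in the groups. Each runs 5′ to 3′ on the gene's strand, from 250 bases before to 50 bases after a RefSeq start (GRCh38.p14), and 6 of the 9 members had such a window. Capitals mark matches on either strand to CAGGTG (an E-box of the kind bound by E2A proteins), GAGGAA (a PU.1-type ETS site) or CGGAAG (an ETS core). The windows are chr19:41877029-41877328 (plus strand) for CD79A, chr10:96271520-96271819 (minus) for BLNK, chrX:101390747-101391046 (minus, the first of 2 listed starts) for BTK and chr16:81738791-81739090 (plus) for PLCG2.
CD79A: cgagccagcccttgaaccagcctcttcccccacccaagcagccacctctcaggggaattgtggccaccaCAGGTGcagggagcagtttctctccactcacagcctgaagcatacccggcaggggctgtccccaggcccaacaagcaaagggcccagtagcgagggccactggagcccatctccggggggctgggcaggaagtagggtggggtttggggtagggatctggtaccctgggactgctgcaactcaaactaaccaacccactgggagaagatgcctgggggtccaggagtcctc
BLNK: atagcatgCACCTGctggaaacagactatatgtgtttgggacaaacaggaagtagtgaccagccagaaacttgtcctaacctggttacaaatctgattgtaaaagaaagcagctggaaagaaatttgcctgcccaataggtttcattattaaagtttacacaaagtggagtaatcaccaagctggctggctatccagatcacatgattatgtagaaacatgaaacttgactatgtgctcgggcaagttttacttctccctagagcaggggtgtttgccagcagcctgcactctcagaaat
BTK: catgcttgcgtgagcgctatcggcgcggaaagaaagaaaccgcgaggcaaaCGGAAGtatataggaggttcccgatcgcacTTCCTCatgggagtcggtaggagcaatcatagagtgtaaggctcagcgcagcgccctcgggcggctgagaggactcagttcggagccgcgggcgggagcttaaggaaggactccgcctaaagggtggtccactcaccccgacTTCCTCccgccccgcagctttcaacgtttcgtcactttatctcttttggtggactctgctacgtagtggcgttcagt
PLCG2: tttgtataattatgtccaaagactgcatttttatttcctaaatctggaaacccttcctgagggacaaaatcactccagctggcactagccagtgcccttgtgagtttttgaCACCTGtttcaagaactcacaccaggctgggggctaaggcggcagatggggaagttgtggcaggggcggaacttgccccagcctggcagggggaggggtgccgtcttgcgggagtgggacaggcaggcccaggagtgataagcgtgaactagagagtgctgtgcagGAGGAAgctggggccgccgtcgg
The E-box letters stood in the windows of CD79A, 181 bases before the start, BLNK (242 bases before) and PLCG2 (139 bases before). They also stood in 2 of the 3 windows of SYK, the fourth member that fell, 15 bases after one start and 204 bases before another. These 2 windows overlap, and both matches are the same site. Of 35116 promoter windows of this length, 20.6% hold the E-box letters. GAGGAA, found in 27.9% of all windows, matched at 169 and 27 bases before the BTK start and 27 bases after the PLCG2 start. It also matched 9 bases after the second BTK start, and in 2 SYK windows at 82 and 32 bases before one start and 47 bases before another. CGGAAG, found in 19.5%, matched 199 bases before the BTK start. Matches thus stood both at genes that differed and at PLCG2. Letters of 4 further motifs, searched on both strands, did not occur in the windows of the 6 members. They are TCCC followed after any 2 bases by GGGA (EBF1, in 1.21% of all windows) and ATGCAAAT (the octamer, 1.77%). The others are GGAA followed after any 2 bases by GAAA (an ETS-IRF composite, 2.82%) and GAAA followed after any 2 bases by GAAA (the core of an interferon response element, 3.57%). The observed over expected CpG ratio was 0.134 for CD79A, 0.0734 for BLNK and 0.355 for PLCG2, all below the median of 0.579 over all windows. It differed between starts of 1 gene, at 1.07 and 0.113 for the 2 BTK starts and at 0.583, 0.914 and 0.111 for the 3 SYK starts. Low ratios thus stood both at members that fell and at PLCG2.

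The comparison of KO with control libraries asks how losing BCL7A changes transcription in myeloma cells, here for the receptor and the steps just below it. CD79A, SYK, BLNK and BTK fell at least 10-fold, CD79B and LYN rose less than 2-fold, and PLCG2 stood at 0.969 times its control level. CD22 and BLK were barely detected in either group. Of the 9 members 7 passed the filter on low counts, and 6 of these were called, 2 as higher in KO and 4 as lower. Over all tested genes 36.4% were called higher and 39.8% lower, so the number of calls lies near the background. SYK and CD79A passed the filter only through the control libraries and therefore had to differ. A fall of at least 10-fold, which these 4 members showed, was found in 8.48% of all tested genes, and one of at least 2-fold in 23.5%. No tested member rose by 2-fold or more, as 9.47% of all tested genes did.

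**Figure D1:**
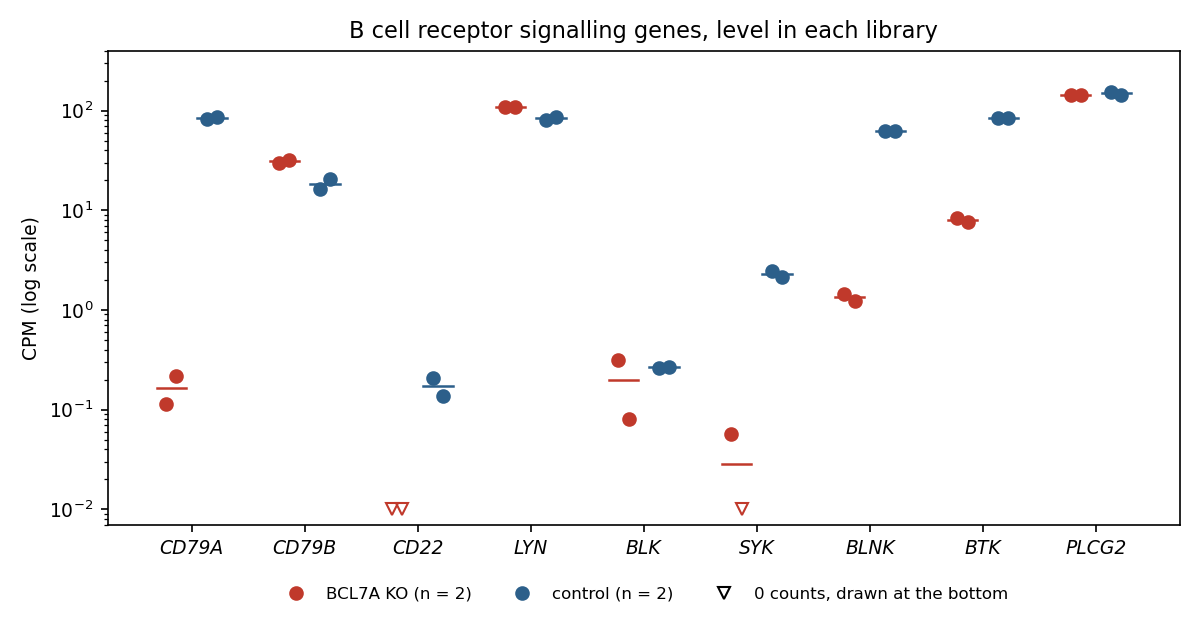
Level of each gene in each library, as CPM on a log scale, with a bar at the mean of the 2 libraries of a group. The KO libraries lie far below the control libraries for CD79A, SYK, BLNK and BTK, above them for CD79B and LYN, and close to them for PLCG2.

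The receptor subunits moved in opposite directions. CD79A (chromosome 19, 41877120 to 41881372, plus strand, GRCh38) had 4 and 8 counts in the KO libraries, which is 0.114 and 0.217 CPM, against 1602 and 1913 counts or 82.9 and 86.2 CPM in the control libraries. It was thus close to absent from both KO libraries and well expressed in both controls. Its mean was 0.165 ± 0.0726 CPM in KO and 84.5 ± 2.34 CPM in control (SD, n = 2 each), 495-fold lower in KO (log2 fold change -8.95, SE 0.13, adjusted p = 2.61e-29 by edgeR's quasi-likelihood test). CD79B (chromosome 17, 63928740 to 63932354, minus strand), its partner, stood at 29.9 and 32.3 CPM in the KO libraries, against 16.5 and 20.6 CPM in the control libraries. Both KO libraries were higher than both controls, and the rise was 1.67-fold (log2 fold change 0.74, SE 0.08, adjusted p = 4.71e-08 by edgeR). Relative to the mean, the control libraries themselves differed by more in CD79B than in the other well expressed members (18.6 ± 2.92 CPM, SD, n = 2). CD79B shares 288 exon bases with AC127029.3 on the same strand, a gene with 1 count in KO and 11 counts in control.

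Per length, the balance of the heterodimer's mRNAs turned round. Dividing CPM by the longest coding transcript (1258 bases for CD79A and 1269 bases for CD79B), CD79A stood at 0.00384 and 0.00676 times the level of CD79B in the KO libraries, against 5.07 and 4.21 times in the control libraries. With 2 libraries a group the smallest p an exact two-sided permutation test can give is 0.333, so no test of this ratio was made.

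Of the heavy chain constant genes only IGHD and IGHM are described here, and neither had a count in KO. The other heavy chain classes are not covered. IGHD, the constant gene of IgD, had no count in KO but averaged 4682 ± 29.2 CPM in control. The control level was 112500 times a floor of 3 counts over the KO group. The 95% counting interval of the ratio, which takes in the error of both groups, starts at 91500. IGHM, that of IgM, had 0 counts in KO and 11 counts in control over both libraries. How reads were shared among heavy chain constant genes is not given in the sources used here.

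CD22 (chromosome 19, 35319261 to 35347355), the inhibitory coreceptor, had 0 counts in both KO libraries and 4 and 3 counts in the control libraries. The pooled control level of 0.169 CPM was 4.05 times a floor of 3 counts over both KO libraries (0.0416 CPM). It did not reach the filter; in the fit without a filter its adjusted p was 0.0221 (edgeR). The floor leaves out the counting error of the 7 control counts; with it, the 95% counting interval of the ratio starts at 2.50.

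Among the SRC family kinases, LYN was well expressed in both groups and BLK close to absent. LYN (chromosome 8, 55879813 to 56014168) was at 109.3 and 110.2 CPM in the KO libraries, against 81.4 and 85.8 CPM in the control libraries. The groups did not overlap, which holds for 87.4% of all tested genes, and LYN rose 1.31-fold (log2 fold change 0.39, SE 0.04, adjusted p = 3.01e-10 by edgeR). BLK (chromosome 8, 11486894 to 11564604) had 11 and 3 counts in the KO libraries and 5 and 6 counts in the control libraries. Its KO libraries lay on either side of the controls, and the ratio of 0.733, KO over control, had a 95% counting interval of 0.309 to 1.79 (exact Clopper-Pearson). A difference in BLK was thus not detectable at this depth. An antisense gene, AC022239.1, shares 65 exon bases with BLK and had 239 counts in KO and 23 in control. The kit was stranded, but the sources used here do not give whether counting used strand, and reads of the pair may be mixed.

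SYK (chromosome 9, 90801787 to 90898549), the kinase that docks on the phosphorylated receptor tails, had 2 and 0 counts in the KO libraries, against 47 and 48 counts in the control libraries. Its level was low even in control, with 0.0285 ± 0.0403 CPM in KO and 2.30 ± 0.19 CPM in control (SD, n = 2 each). Control exceeded KO by a ratio of 82.4, with a 95% counting interval of 22.2 to 691 (adjusted p = 4.29e-10 by edgeR). Leaving out KO replicate 1 leaves a KO library with 0 counts, and the fitted log2 fold change is then -8.90, against -6.16 with all libraries; neither is a bound.

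BLNK (chromosome 10, 96191702 to 96271587), the adaptor that SYK phosphorylates, was at 1.45 and 1.22 CPM in the KO libraries, against 63.3 and 62.0 CPM in the control libraries. The replicates of each group lay close together, and BLNK fell 46.9-fold (log2 fold change -5.55, SE 0.10, adjusted p = 2.84e-27 by edgeR). It shares 355 exon bases with ZNF518A on the opposite strand, which had 3048 counts in KO and 2084 counts in control, so the few KO counts of BLNK could include reads of that gene.

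BTK (chromosome X, 101349447 to 101390796), the TEC family kinase that activates PLCG2, kept a measurable level in the KO libraries. It was at 8.32 and 7.55 CPM there, against 85.4 and 84.3 CPM in the control libraries. The fall was 10.7-fold (log2 fold change -3.42, SE 0.06, adjusted p = 1.24e-26 by edgeR), the smallest among the 4 members that fell.

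PLCG2 (chromosome 16, 81739097 to 81962693), the phospholipase that BTK acts on, was well expressed in both groups. It was at 144.3 and 144.9 CPM in the KO libraries and at 153.5 and 145.2 CPM in the control libraries. Both KO libraries lay below both controls, but the upper KO and the lower control library all but met, and the difference did not pass the threshold (log2 fold change -0.045, 95% interval -0.11 to 0.02, adjusted p = 0.223 by edgeR). The call depends on 1 library, since without control replicate 2 PLCG2 was lower in KO (log2 fold change -0.10, adjusted p = 0.00975). A lincRNA gene, AC099524.1, shares 386 of its exon bases and had 4 counts in KO and 41 in control.

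The order of the members by level per length differed between the groups. In the KO libraries CD79B led with 24.5 ± 1.31 CPM per kb, followed by LYN at 18.9 ± 0.106 and PLCG2 at 16.6 ± 0.0495 CPM per kb (SD, n = 2). BTK (2.87 ± 0.195), BLNK (0.748 ± 0.0928) and CD79A (0.131 ± 0.0577 CPM per kb) came far below. BLK, SYK and CD22 closed the KO order at 0.0757, 0.00569 and 0 CPM per kb, and there BLK and CD79A did not differ beyond their spread. In the control libraries CD79A led with 67.2 ± 1.86 CPM per kb, ahead of BLNK (35.1 ± 0.488) and BTK (30.7 ± 0.269). PLCG2 (17.2 ± 0.672), CD79B (14.6 ± 2.30) and LYN (14.4 ± 0.537 CPM per kb) followed in control, and CD79B and LYN overlapped there. SYK was at 0.459, BLK at 0.102 and CD22 at 0.0524 CPM per kb. With merged exons as the length, LYN came first in KO at 17.7 CPM per kb, ahead of CD79B, and BTK passed BLNK in control (18.6 against 17.1 CPM per kb), so places next to each other depend on the length used.

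**Figure D2:**
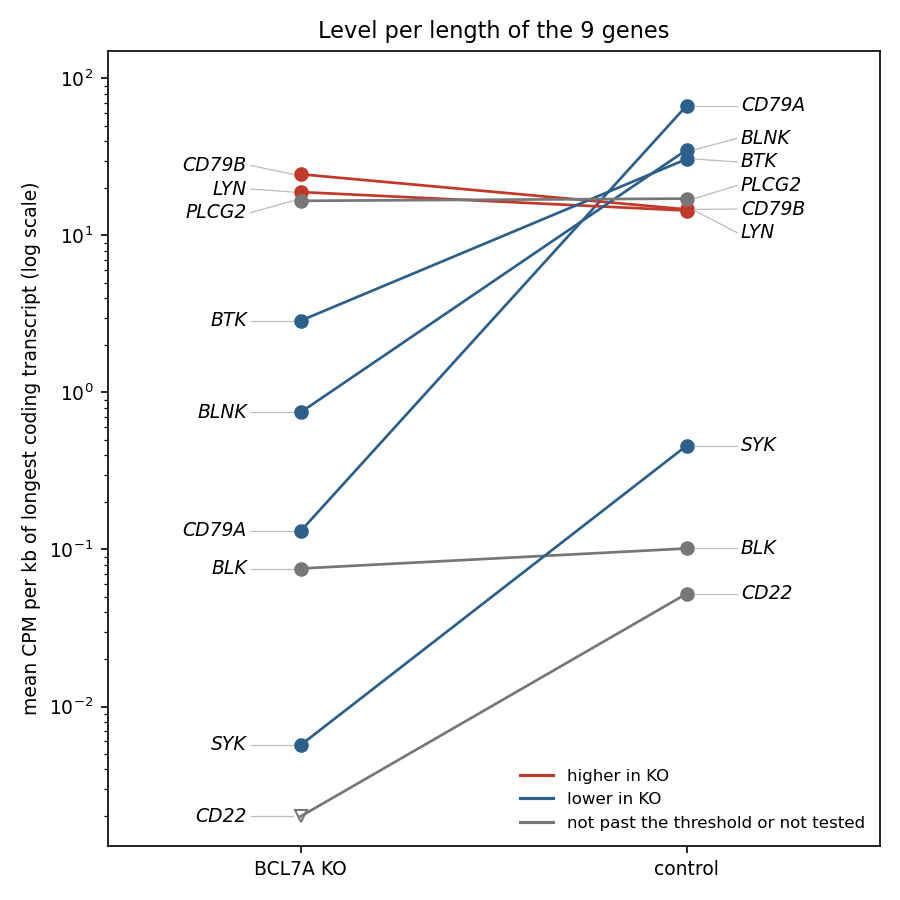
Mean CPM per kb of the longest coding transcript on a log scale, KO on the left and control on the right, with 1 line per gene; the open triangle stands for 0 counts. Lines of CD79A, BLNK, BTK and SYK climb to the control side, and those of CD79B, LYN and PLCG2 stay between 14.4 and 24.5 CPM per kb.

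Coding genes that overlap a member were not counted as neighbours. This left out ZNF518A, which overlaps BLNK and had 3048 counts in KO and 2084 counts in control, before scaling for depth. Over all tested genes 36.4% were called higher and 39.8% lower. Beside the 4 members that fell, 2 of the 8 nearest tested coding genes fell (RPL36A and TLL2), 5 rose and CCNJ did not pass the threshold. Those of CD79A, RPS19 and ARHGEF1, lie 4194 and 1789 bases away and rose 1.18-fold and 1.44-fold in KO, where CD79A fell 495-fold. BTK lies 28 bases from RPL36A, which fell to 201.9 ± 12.5 CPM in KO against 299.2 ± 8.39 CPM in control, a log2 fold change of -0.57, against -3.42 for BTK. On its other side, 251 bases away, TIMM8A was at 20.4 ± 2.22 CPM in KO and 16.6 ± 2.74 CPM in control (adjusted p = 0.0151 by edgeR), a call that was lost without KO replicate 1 (adjusted p = 0.131) or control replicate 2 (adjusted p = 0.298). SYK stood alone, with its nearest tested neighbours at 315266 and 1303657 bases, and both of these, AUH and SEMA4D, rose (log2 fold changes 0.44 and 0.58). Around CD79B and LYN the neighbours rose along with the member, as 36.4% of all tested genes did. SMARCD2 and SCN4A beside CD79B had log2 fold changes of 0.57 and 0.56, and TGS1 and RPS20 beside LYN of 0.46 and 0.28. Large falls beside a member occurred in 2 places. DMKN, 149865 bases from CD22, was at 0.0854 ± 0.121 CPM in KO and 43.0 ± 2.17 CPM in control, and TLL2, 93019 bases from BLNK, at 0.545 ± 0.196 CPM in KO and 5.48 ± 0.657 CPM in control. DMKN passed the filter only through the control libraries and had to differ. FAM167A, which lies 10986 bases from BLK, rose 4.11-fold. The ribosomal protein genes RPS19, RPS20 and RPL36A have processed pseudogene copies, so their values are uncertain.

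**Figure D3:**
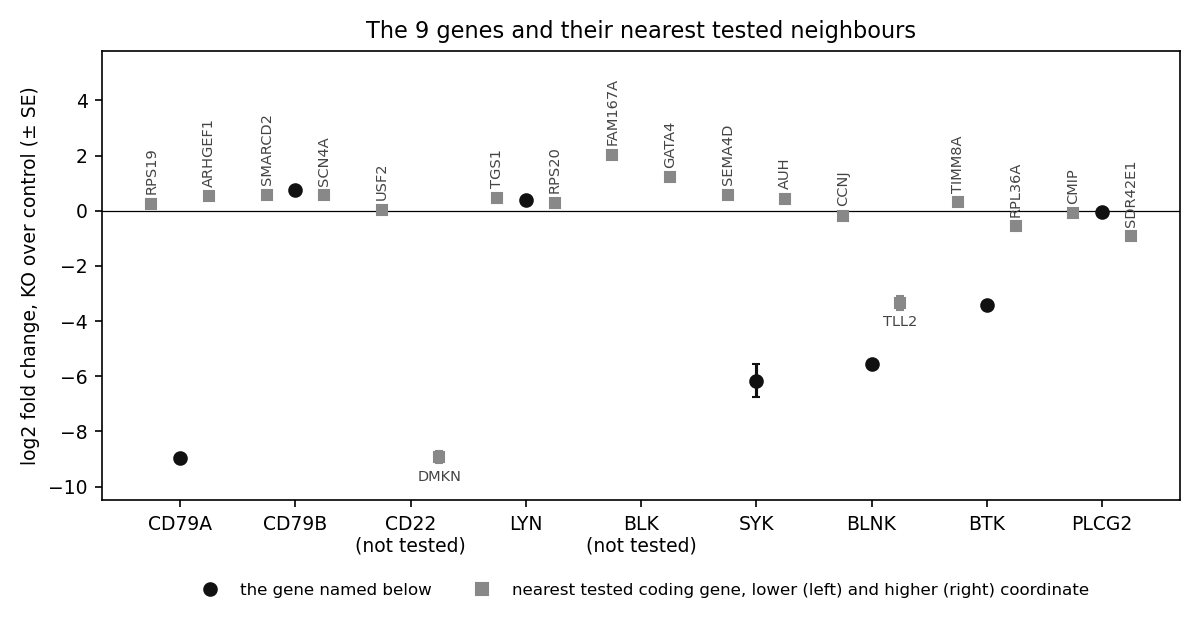
Log2 fold change, KO over control, with its SE, of each tested member (circles) and of the nearest tested, non-overlapping coding gene on each side (squares). The falls of CD79A, SYK and BTK stand apart from their neighbours, while CD79B and LYN lie level with theirs.

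The rest of the pathway was described with lists of coreceptors, kinases, adaptors and downstream signalling genes. Without the members these held 107 genes, of which 97 were tested. There 36 rose, 44 fell and 17 did not pass the threshold, and the median log2 fold change was -0.0093, against -0.057 over all tested genes. The genes around the members thus went both ways in about the proportions of all genes.

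Upstream of the kinases, CD81 was the 1 tested gene of the activating coreceptor list. CD81, a tetraspanin, fell to 53.5 ± 2.34 CPM in KO against 67.9 ± 1.03 CPM in control. CR2, a complement receptor, had 3 counts in KO and 5 in control. Of 11 tested inhibitory receptor genes besides CD22, 5 were higher and 6 lower in KO, at a median of -0.25 (log2). Over all tested genes 36.4% were called higher and 39.8% lower. Among the 6 lower genes, SIGLEC10, PDCD1 and CD72 passed the filter only through the control libraries and had to differ. PECAM1, an adhesion receptor with inhibitory motifs, rose to 98.5 ± 0.934 CPM in KO against 34.0 ± 1.96 CPM in control, and FCRL3 and FCRL2, Fc receptor-like proteins, had log2 fold changes of 1.13 and 0.40. FCGR2B, the inhibitory Fc receptor of B cells, fell to 3.52 ± 0.423 CPM in KO against 21.9 ± 0.777 CPM in control, a value that is uncertain because close paralogs can share its reads.

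Negative regulators split evenly, with 8 of 16 higher and 7 lower in KO, beside 36.4% higher and 39.8% lower over all tested genes. Among the 7 lower genes, DOK2 passed the filter only through the control libraries and had to differ. PTPN6, the phosphatase that CD22 recruits, rose to 146.3 ± 0.274 CPM in KO against 80.8 ± 0.246 CPM in control. UBASH3B, a phosphatase that acts on SYK family kinases, rose to 91.2 ± 0.508 CPM in KO against 29.8 ± 1.31 CPM in control. PTPN22, a phosphatase of SRC family kinases, went the other way (5.20 ± 0.382 CPM in KO and 19.9 ± 1.98 CPM in control).

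Among the kinases related to the members, ZAP70 fell as SYK did. ZAP70, the relative of SYK used mainly by T cells, was at 0.209 ± 0.0664 CPM in KO and 30.3 ± 1.12 CPM in control (log2 fold change -7.16, SE 0.18, adjusted p = 7.64e-24 by edgeR). Like SYK it passed the filter only through the control libraries and had to differ, as did RASGRP2, PAX5 and IGHD. It had 9 and 6 counts in the KO libraries, against 571 and 691 counts in the control libraries. The other 2 tested genes of its list, TEC among them, did not pass the threshold. BTK's relative TEC was at 7.92 ± 0.402 CPM in KO and 6.89 ± 1.46 CPM in control and did not pass the threshold (adjusted p = 0.187 by edgeR). Of 4 other tested SRC family kinase genes 2 passed the threshold, FYN and YES1, where 76.2% of all tested genes did. FYN, of the SRC family like LYN, rose to 43.2 ± 0.0358 CPM in KO against 26.5 ± 0.542 CPM in control. YES1 was at 39.0 ± 1.28 CPM in KO and 35.8 ± 0.122 CPM in control (adjusted p = 0.0489 by edgeR), a call lost without any 1 of the 4 libraries (adjusted p 0.0572 to 0.261). With upper-quartile factors its direction turned (log2 fold change -0.011).

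Adaptor genes beside BLNK also went both ways, 6 of 15 up and 6 down, beside 36.4% higher and 39.8% lower over all tested genes. LCP2, the T cell counterpart of BLNK, rose to 97.0 ± 2.87 CPM in KO against 39.7 ± 1.70 CPM in control, and VAV1, an exchange factor for RAC, to 249.1 ± 0.82 CPM in KO against 105.3 ± 4.63 CPM in control. SHC1 rose less (log2 fold change 0.78, SE 0.03), while the docking protein GAB2 fell to 5.11 ± 0.464 CPM in KO against 49.1 ± 1.63 CPM in control. In the PI3K branch 2 of 10 rose and 6 fell, again beside 36.4% higher and 39.8% lower over all tested genes. PIK3CD, the catalytic subunit that dominates in lymphocytes, was at 2.88 ± 0.171 CPM in KO and 25.8 ± 1.03 CPM in control. PIK3R1 and AKT1 had log2 fold changes of -0.94 and -0.85.

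Below PLCG2, 8 of 14 tested genes of the calcium branch fell and 4 rose, beside 39.8% lower and 36.4% higher over all tested genes. All 3 genes of the IP3 receptors, the calcium channels that the product of PLCG2 opens, fell. ITPR3 was at 24.5 ± 0.0758 CPM in KO and 182.0 ± 4.26 CPM in control, ITPR1 at 25.03 ± 0.448 CPM in KO and 113.6 ± 0.468 CPM in control, and ITPR2 had a log2 fold change of -1.02. NFATC1, a calcium-driven transcription factor, fell to 1.303 ± 0.0709 CPM in KO against 27.7 ± 1.17 CPM in control. Of 10 genes of the protein kinase C to IKK step, 5 rose and 3 fell. PRKCA (log2 fold change 1.24) and CHUK (0.43) rose, and MALT1 (-0.41) and MAP3K7 (-0.45) fell. In the RAS branch 4 of 13 rose and 6 fell, and the exchange factor gene RASGRP2 had 0 and 1 counts in KO and 232 and 286 counts in control, a ratio of 899, control over KO, with a 95% counting interval of 161 to 35600. NRAS rose to 512.2 ± 6.98 CPM in KO against 223.6 ± 1.32 CPM in control, MAP2K2 had a log2 fold change of 0.70, and BRAF of -0.91.

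**Figure D4:**
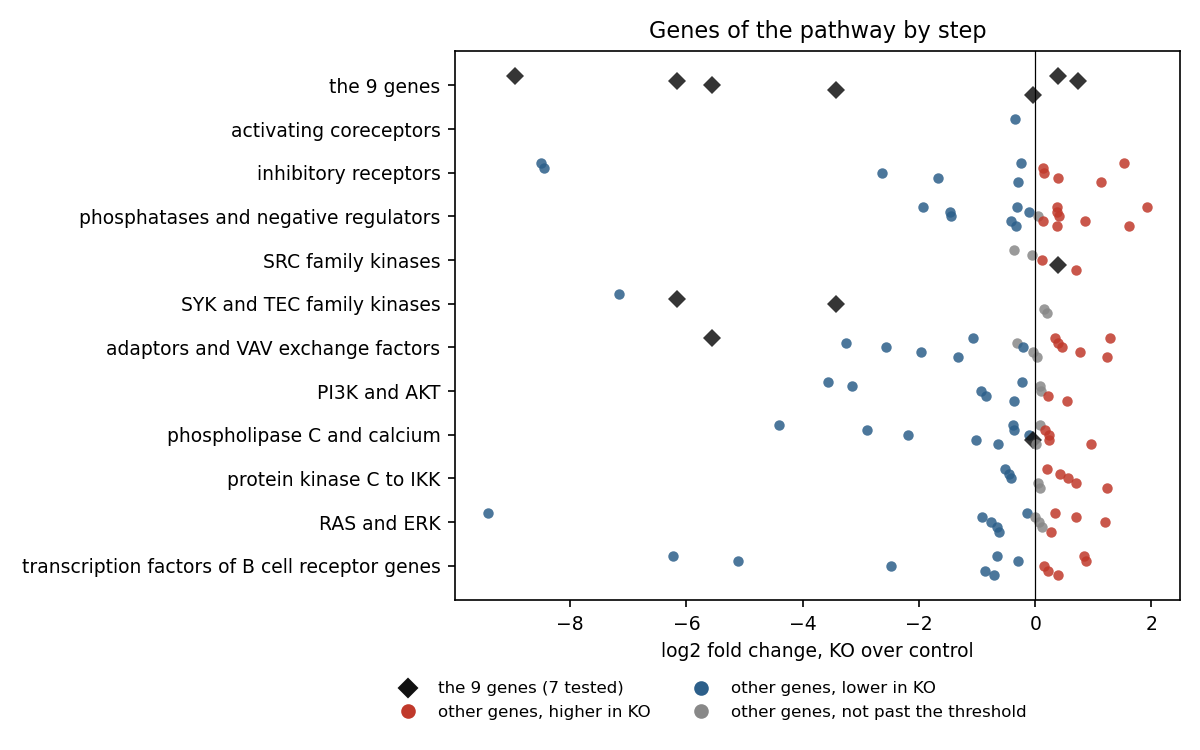
Log2 fold change, KO over control, of the tested genes of each pathway list, with the members as black diamonds; genes with 0 counts in the KO libraries stand at fitted values that are no bounds, and IGHD lies outside the lists drawn. Every list with more than 5 tested genes has genes on both sides of 0.

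Transcription factor genes known to act on B cell receptor genes were described as well. Of 12 tested, 5 rose and 7 fell, beside 36.4% called higher and 39.8% lower over all tested genes. Among the 7, PAX5 and IRF8 passed the filter only through the control libraries and had to differ. PAX5, the B cell identity factor and a known activator of CD79A, was at 0.291 ± 0.00916 CPM in KO and 22.3 ± 0.075 CPM in control. ETS1 was at 9.04 ± 0.303 CPM in KO and 313.7 ± 0.0529 CPM in control. TCF3, which encodes the E2A proteins, and the coactivator gene POU2AF1 rose (log2 fold changes 0.87 and 0.83). EBF1, the activator of CD79A and CD79B in B cell precursors, had 6 and 4 counts in KO and 4 and 5 counts in control.

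Since several members also serve in other blood cells, markers of these were measured beside them. Among 7 myeloid markers MPO had 0 counts in all 4 libraries and LYZ was at 0.180 ± 0.0132 CPM in KO and 0.190 ± 0.0495 CPM in control. Of the 4 that were tested, 1 rose and 3 fell, beside 36.4% called higher and 39.8% lower over all tested genes. CSF1R, the receptor of a macrophage growth factor, had 20 and 14 counts in KO and 0 counts in control, while ITGAM, an integrin chain, FCER1G, an Fc receptor chain, and CD33, a SIGLEC, fell (log2 fold changes -3.97, -3.82 and -0.66). CSF1R passed the filter only through the KO libraries, and ITGAM and FCER1G only through the control libraries, so these genes had to differ. The myeloid list summed to 3.38 to 3.96 CPM in KO and 6.44 to 7.19 CPM in control. The 6 T cell markers summed to 597.3 to 609.9 CPM in KO and 417.6 to 418.4 CPM in control, nearly all of it CD28, which myeloma cells often carry, and CD3D had 0 counts throughout. The 5 NK markers summed to 193.9 to 194.2 CPM in KO and 100.9 to 101.2 CPM in control, almost entirely NCAM1, another frequent myeloma antigen. Of the mature B cell markers, 4 of 6 were tested and all 4 fell, led by CD37 and PAX5. Of these, MS4A1 and PAX5 passed the filter only through the control libraries and had to differ. Precursor B cell markers summed to 3.44 to 3.62 CPM in KO and 7.50 to 8.65 CPM in control, with RAG2 at 0 counts throughout. The sum joins opposite changes of the 2 tested genes. RAG1, which passed the filter only through the control libraries, was at 0.0976 ± 0.0231 CPM in KO and 6.60 ± 0.411 CPM in control. MME rose to 3.37 ± 0.0624 CPM in KO against 1.43 ± 0.337 CPM in control. Erythroid, epithelial and fibroblast markers summed to at most 0.513, 12.6 and 0.484 CPM in KO and to at most 4.42, 70.9 and 11.2 CPM in control. The 4 epithelial markers did not move together. EPCAM had 0 counts in KO and 2200 counts in control, and KRT8 fell to 1.35 ± 0.186 CPM in KO against 9.56 ± 1.08 CPM in control. KRT18 rose to 6.49 ± 0.316 CPM in KO against 1.93 ± 1.07 CPM in control, and CDH1 was at 4.46 ± 0.311 CPM in KO and 4.13 ± 1.23 CPM in control (adjusted p = 0.631 by edgeR). Of the erythroid markers, the haemoglobin gene HBA1 had 0 counts in KO and 160 in control. HBA1 and EPCAM passed the filter only through the control libraries and had to differ. The part of these markers' cells in the results was not tested, and fewer cells of a type and less RNA per cell cannot be told apart in bulk RNA.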

How the data were processed

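Estimated counts per gene were deposited as 1 table for 4 libraries, made by the authors from poly(A)-selected libraries of a stranded kit. The submitters' processing notes name Salmon 0.12 and GRCh38. Annotation and strand setting: not given in the sources used here. All deposited values were whole numbers. All 56809 gene names occur in GENCODE 29 (GRCh38), which gave coordinates, neighbours and lengths; 92 ERCC spike-in rows, with at most 5 counts a library, were left out.

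Genes were filtered with filterByExpr, scaled with TMM and compared, KO over control, by edgeR 4.0.16's quasi-likelihood test with robust shrinkage and no covariates in R 4.3.3, with Benjamini-Hochberg adjustment over 17885 genes. The SE is the absolute log2 fold change over the square root of F. CPM uses TMM-scaled library sizes. Intervals cover counting error only, and floors only that of the KO counts. Replicates differed by more than sampling noise: their counts gave a chi-square over its degrees of freedom of 1.79 in KO and 2.43 in control.

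Members, lists and tests were chosen with earlier results of these data known. Named genes are the members, BCL7A, IGHD and IGHM, up to 4 genes per pathway list by smallest p (past the threshold, mean of at least 1 CPM, groups that do not overlap), the nearest tested coding gene on each side of a member, and the gene closest to each member in centred log2(CPM + 0.5) over 4 libraries. CR2, TEC, EBF1 and single markers were chosen after their values were seen. Some genes that the rule names are not reported here. Alternatives were DESeq2 1.42.0, limma-voom (limma 3.58.1), scaling by RLE or upper-quartile factors, a stricter filter (mean count 10 or more and 1 CPM or more in 2 libraries) or none, a replicate block, leaving out 1 library at a time, plain shrinkage, KO libraries thinned to control depth and a threshold of 0.01.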

Additional observations from a re-analysis of the deposited data

How the results depend on the processing

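Over the 13 alternative fits CD79A, CD79B, BLNK, BTK, SYK, LYN and BCL7A kept their direction and stayed past the threshold. The log2 fold change ranged from -9.46 to -8.57 for CD79A, from 0.59 to 0.90 for CD79B, from -5.68 to -5.42 for BLNK, from -3.55 to -3.34 for BTK, from -8.90 to -5.18 for SYK and from 0.26 to 0.47 for LYN. PLCG2 changed its call. It was lower in KO with upper-quartile factors (-0.18), with the stricter filter (-0.10) and with thinned KO libraries (-0.094), and reached 0.038, not past the threshold, with no filter. Leaving out 1 library at a time gave 6 or 7 members past the threshold, and PLCG2 ranged from -0.10, without control replicate 2 and past the threshold, to -0.0089, without control replicate 1. The same settings moved all genes by a median, on the log2 scale, of -0.13 with upper-quartile factors, 0.083 with no filter, -0.058 with the stricter filter and -0.039 with thinning. PLCG2 moved by about these shifts, so that relative to all genes it changed little. Without control replicate 2 all genes moved by -0.016, less than PLCG2, and the cause was not tested.

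The deviations of same-numbered libraries correlated at -0.00894 over 17885 genes. Counting noise enters this value, so it cannot show whether same-numbered libraries were handled together. With the replicate block 13287 genes passed the threshold, against 13629 without it, and the same number of members, 6.

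The same fits were applied to 62 other named genes and to the pathway lists, a choice made after the data were seen. Signalling genes past the threshold numbered 30 to 44 higher and 36 to 46 lower in KO. Directions turned for YES1 with upper-quartile factors (-0.011), for TMEM81 with no filter (0.026) and for USF2 with upper-quartile factors (-0.11), the stricter filter (-0.033) or without control replicate 1 (-0.051; 0.095 without control replicate 2). Depth limits CD22, BLK and the KO levels of SYK and CD79A, each with under 20 counts in a group.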

Other observations

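The tested gene whose pattern over the 4 libraries lay closest to that of each member was sought among 14289 genes averaging 1 CPM or more, by Euclidean distance of centred log2(CPM + 0.5). For CD79A it was MDK, which encodes the growth factor midkine, at 0.057 and 0.0812 CPM in the KO libraries and 69.2 and 75.6 CPM in the control libraries (distance 0.124). BLNK was matched by CD177, at 0.0285 and 0 CPM in KO and 17.3 and 16.7 CPM in control (distance 0.0784; a pseudogene copy makes its value uncertain), and BTK by MROH1, at 5.87 and 5.06 CPM in KO and 59.9 and 58.2 CPM in control (distance 0.0515). PRKCE, a protein kinase C gene, lay closest to SYK (2.71 and 2.52 CPM in KO, 17.0 and 15.3 CPM in control, distance 0.0501). The nearest genes of CD79B, LYN and PLCG2 were CCDC186, FAM126A and TMEM81 (distances 0.0576, 0.0131 and 0.00985). MDK and CD177 passed the filter only through the control libraries and had to differ. The match depends on the added 0.5 for genes near 0. SYK and PRKCE had fitted log2 fold changes of -6.16 and -2.62, and BLNK and CD177 of -5.55 and -9.86.

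Summed over the 9 members, the level was 293.8 and 296.5 CPM in the KO libraries and 485.9 and 486.8 CPM in the control libraries.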
